A study of Ovis aries with 6 samples.

Results

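The genes described here are the cytokines and chemokines of the sheep ovary, their receptors, and the signalling proteins that act below those receptors. They were chosen by symbol alone, through a pattern of family names that used no measured value, and they number 91 of the 14480 genes in the deposited table. Polyadenylated ovarian RNA taken at estrus was sequenced in 3 libraries of Hu sheep, a prolific Chinese breed, and in 3 libraries of Mongolian sheep, a breed with small litters. All 6 libraries share the tissue label ovary, and the labels name no treatment, allele or age for either breed. The series title mentions exosomes, but no sample label does. The labels leave unsaid whether the replicates were separate ewes, so every p-value measures the spread between these libraries only, which may be technical. Levels are FPKM, fragments scaled to transcript length and library total, and the depth behind them is unknown. A trio of values follows the replicate numbers, and a value of 0 means only that the gene was listed at 0.

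Cytokines are small secreted proteins that bind receptors on the cell surface. Type I and type II cytokine receptors carry no enzyme of their own and signal through Janus kinases (JAK), which phosphorylate STAT transcription factors. SOCS proteins, many of them induced by STATs, then shut the signal down. Interferon regulatory factors (IRF) act with STATs or below Toll-like receptors, the sensors of microbial molecules. Interleukin 1, interleukin 17, tumour necrosis factor (TNF) and Toll-like receptors signal mainly through NF-kB and not through JAKs, so the 91 genes cover more than the JAK-STAT route. In the mammalian ovary, leukocytes and their cytokines take part in ovulation, in the remodelling of the follicle wall and in the life of the corpus luteum.

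The libraries differed widely in how many of the 91 genes they listed above 0. Of the 91, the Hu libraries listed 30, 46 and 77, against 51, 68 and 54 in the Mongolian libraries. Hu 1 and Hu 2 lay below the Mongolian range and Hu 3 above it. The mean was 51 ± 23.9 genes for Hu and 57.7 ± 9.07 genes for Mongolian (SD, n = 3 each; two-sided exact permutation test, p = 0.8, where 3 against 3 libraries cannot go below 0.1). Over all 14480 genes the same order of Hu libraries held, with 44.9%, 55.05% and 92.1% listed in Hu and 72.8%, 79.2% and 73.2% in Mongolian. For the 91 genes the shares were 32.97%, 50.5% and 84.6% in Hu and 56.04%, 74.7% and 59.3% in Mongolian, lower than those of all genes in each of the 6 libraries. The summed level of the 91 genes was 86.1, 174 and 312 FPKM in Hu and 173, 175 and 238 FPKM in Mongolian. On a log2 scale this sum gave an exact permutation p of 0.8.

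**Figure D1:**
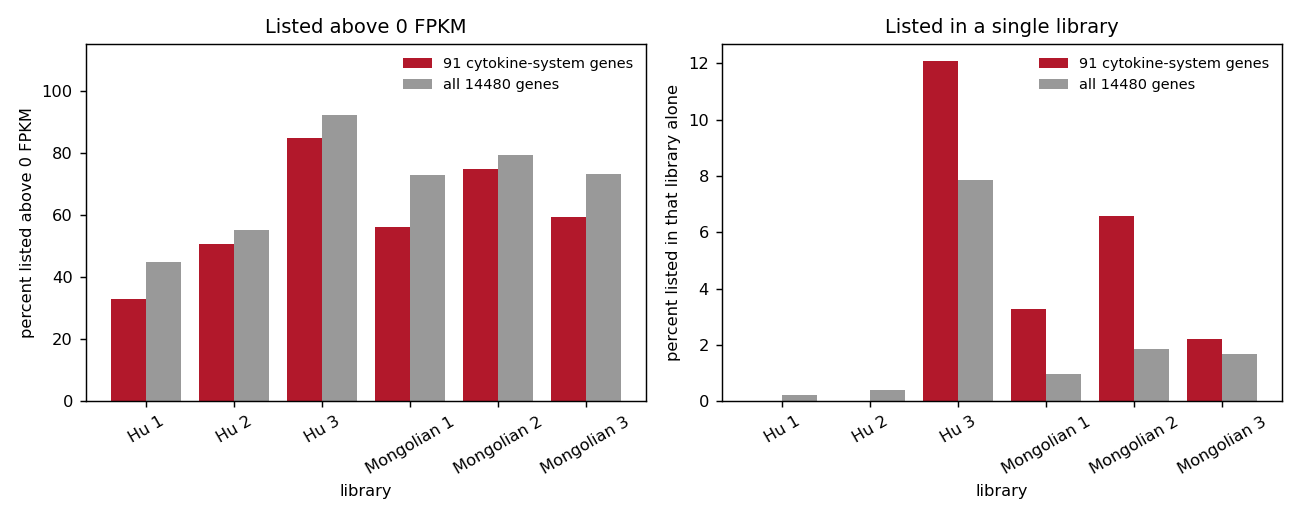
Percent of the 91 cytokine-system genes and of all 14480 genes listed above 0 FPKM in each library (left), and percent listed in that library and no other (right). Hu 1 lists the smallest share of the 91 (32.97%) and Hu 3 the largest (84.6%), and Hu 3 alone holds 11 genes listed in no other library.

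Janus kinases and STATs were listed almost throughout, whereas most secreted ligands were not. All 6 libraries listed 23 of the 91 genes. These included all 4 Janus kinases and 5 of the 6 STATs, but 1 of 8 chemokine ligands, 0 of 7 chemokine receptors, 0 of 8 interleukin ligands and 0 of 5 TNF superfamily ligands. A further 22 genes were listed in a single library. Of these, 11 were listed in Hu 3 alone, 6 in Mongolian 2, 3 in Mongolian 1 and 2 in Mongolian 3. The Hu 3 genes were the chemokines CCL24 and CCL25, the cytokines IL1B, IL7, IL15, IL18, TNFSF8, TNFSF10 and TNFSF15, and the receptors IL12RB2 and IL13RA2. Their share of the 91 was 12.1%, where 7.87% of all genes were listed in Hu 3 alone. For Mongolian 1, 2 and 3 the shares of the 91 were 3.30%, 6.59% and 2.20%, against 0.981%, 1.86% and 1.66% of all genes. Over all 14480 genes, 5046 were listed in all 6 libraries and 1886 in a single library.

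In 28 ligand and receptor pairings that were looked at, 17 had no ligand listed by symbol and 1, interleukin 33 with its co-receptor IL1RAP, had both sides above the filter for testing. Even there, the interleukin 33 receptor itself, IL1RL1, was listed in 2 libraries and did not pass the filter. Symbols such as IL6, TNF, IFNG, CXCL12 and CCL2 had no row in the table used here. The filter kept a gene when 3 or more of the 6 libraries reached 0.5 FPKM. It passed 46 of the 91 genes, and the 45 others were scarce, with 23 of them reaching 1 FPKM in any library and 3 reaching 5 FPKM.

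CCL21 had the highest mean of the 91 genes. It encodes a chemokine of lymphatic endothelium and lymphoid stroma that draws cells bearing the receptor CCR7, which was not listed by symbol. CCL21 stood at 18.3, 22.96 and 30.02 FPKM in Hu, against 19.998, 7.77 and 14.9 FPKM in Mongolian. It ranked highest of the 91 in all 3 Hu libraries and in Mongolian 1, with rank 4 in Mongolian 2 and rank 3 in Mongolian 3. The Hu values were higher on average, at 23.8 ± 5.89 FPKM in Hu and 14.2 ± 6.14 FPKM in Mongolian (mean ± SD, n = 3 each), but Hu 1 lay below Mongolian 1, and the log2 difference was 0.76 (95% confidence interval -0.39 to 1.92). Without Mongolian 2 it was 0.41. PROX1, a transcription factor that marks lymphatic endothelium, stood at 3.54, 7.63 and 14.02 FPKM in Hu, against 3.87, 7.702 and 2.99 FPKM in Mongolian. Over 11 of 12 endothelial markers that were listed, the summed level was 21.1, 25.6 and 45.7 FPKM in Hu and 11.97, 23.1 and 12.5 FPKM in Mongolian. Their part in the CCL21 values was not tested, and in bulk tissue fewer cells of a type and less RNA per cell cannot be told apart.

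The interferon-induced chemokines that attract T cells were patchy. CXCL9 stood at 0, 3.53 and 5.04 FPKM in Hu, against 0.231, 4.61 and 0 FPKM in Mongolian. It was high in Hu 2, Hu 3 and Mongolian 2 and near or at 0 elsewhere, so the breeds overlapped. Its log2 difference of 0.66 ranged from 0.16 without Hu 3 to 1.46 without Hu 1. CXCL10 was listed in Hu 3 at 5.56 FPKM and in Mongolian 2 at 2.3003 FPKM only, and CXCL11 in Mongolian 2 only, at 0.632 FPKM. Their receptor CXCR3 was listed in Mongolian 1 alone, at 1.86 FPKM. CXCL16, a membrane-bound chemokine, stood at 0, 0 and 1.58 FPKM in Hu, against 0.547, 0.567 and 0.237 FPKM in Mongolian. Its receptor CXCR6 reached 0.988 FPKM at most, in Mongolian 2. None of the 7 chemokine receptors passed the filter. CXCR4, which guides many leukocytes and stem cells, was listed in Mongolian 2 alone at 1.36 FPKM.

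Interleukin genes themselves were scarce. IL33, an alarmin that cells release when damaged, stood at 1.69, 0 and 2.37 FPKM in Hu, against 0, 0.528 and 2.55 FPKM in Mongolian. IL16, which attracts CD4-bearing cells, stood at 0, 0 and 0.661 FPKM in Hu, against 0.243, 0.741 and 1.05 FPKM in Mongolian. Neither gene separated the breeds. IL1B reached 0.459 FPKM in Hu 3 and IL1A 0.375 FPKM in Mongolian 3, each in that library only. IL15 and IL7, growth factors of lymphocytes, were listed only in Hu 3, at 2.23 FPKM for IL15 and 1.59 FPKM for IL7.

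Type I cytokine receptors were led by IL6ST. IL6ST encodes the gp130 chain shared by interleukin 6, interleukin 11 and leukaemia inhibitory factor, and it stood at 1.58, 4.48 and 14.04 FPKM in Hu, against 5.48, 6.395 and 4.01 FPKM in Mongolian. It was the highest of the 11 type I cytokine receptors in 5 libraries, while IL27RA was highest in Mongolian 3. The Hu values enclosed all 3 Mongolian values. IL6R, the chain that binds interleukin 6 itself, was listed at 0.641 FPKM in Hu 2 and 1.39 FPKM in Mongolian 2 and at 0 in the other 4 libraries. IL11RA, the binding chain for interleukin 11, stood at 0.474, 0.4603 and 1.88 FPKM in Hu, against 0.5597, 1.33 and 0.736 FPKM in Mongolian.

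IL27RA, which pairs with gp130 to bind interleukin 27, separated the breeds. It stood at 0, 1.14 and 1.17 FPKM in Hu, against 1.69, 3.19 and 5.76 FPKM in Mongolian. Each Hu value lay below each Mongolian value, and the nearest values were 1.17 FPKM in Hu 3 and 1.69 FPKM in Mongolian 1. Its log2 difference was -1.34 (95% confidence interval -2.90 to 0.21), with a limma adjusted p of 0.998. The receptors for interleukin 4 and interleukin 13 showed no such separation. IL4R stood at 0, 0.08702 and 2.36 FPKM in Hu, against 1.26, 0.363 and 2.997 FPKM in Mongolian, and IL13RA1 stood at 0, 0.759 and 2.105 FPKM in Hu, against 2.47, 0.7299 and 1.36 FPKM in Mongolian. Both were at 0 in Hu 1. All 5 tested type I receptors had a negative log2 difference, with a median of -0.46, and none passed the test. Those of IL11RA (-0.009) and IL6ST (-0.06) were small. Of all 9971 genes tested, 6750 had a negative difference, and the median was -0.28.

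Of the 5 tested interferon and interleukin 10 family receptors, 3 had a positive difference and 2 a negative one. IFNAR1, a chain of the type I interferon receptor, stood at 2.36, 3.11 and 4.07 FPKM in Hu, against 2.01, 1.91 and 0.498 FPKM in Mongolian. It was the only tested member whose 3 Hu values all lay above the 3 Mongolian values, an order found in 1.88% of all genes tested, with 2.36 FPKM in Hu 1 next to 2.01 FPKM in Mongolian 1. Its average was 3.18 ± 0.854 FPKM in Hu and 1.47 ± 0.845 FPKM in Mongolian (mean ± SD, n = 3 each), and its log2 difference was 0.81 (95% confidence interval -0.73 to 2.34). Without Mongolian 3 it was 0.48. The interval includes 0, and the adjusted p was 0.998. IFNAR2, the other chain, stood at 0, 2.79 and 4.98 FPKM in Hu, against 0.765, 1.63 and 0.956 FPKM in Mongolian. Hu 2 and Hu 3 exceeded all Mongolian values there, but Hu 1 was listed at 0.

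The interferon gamma receptor showed no order between breeds. IFNGR1, its binding chain, stood at 0, 4.27 and 4.03 FPKM in Hu, against 1.796, 5.74 and 1.501 FPKM in Mongolian. IFNGR2, its signalling chain, stood at 1.996, 3.95 and 8.498 FPKM in Hu, against 2.32, 6.0004 and 3.05 FPKM in Mongolian. IFNGR2 was the highest of the 6 interferon and interleukin 10 family receptors in 4 libraries.

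Among receptors of the interleukin 1 and interleukin 17 families, IL1R1 and its partner IL1RAP had log2 differences of opposite sign, neither of which passed the test. IL1R1, the signalling receptor of interleukin 1, stood at 4.198, 0.667 and 8.93 FPKM in Hu, against 1.79, 2.29 and 0.848 FPKM in Mongolian. The Hu values were spread on both sides of the Mongolian ones, and the log2 difference was 0.78 (95% confidence interval -0.93 to 2.50). It was 1.48 without Hu 2 and 0.20 without Hu 3, and it turned negative with array weights (-0.42) and without Hu 1 and Hu 3 together (-0.62). IL1RAP, the co-receptor that IL1R1 needs, stood at 0.206, 0 and 0.914 FPKM in Hu, against 1.78, 1.19 and 2.87 FPKM in Mongolian. All Hu values lay below all Mongolian values, and the log2 difference was -1.12 (95% confidence interval -2.42 to 0.18).

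IL17RB, a receptor chain for interleukin 17B and interleukin 25, was the only tested member at 0 in all 3 libraries of a breed. It stood at 0, 0 and 0 FPKM in Hu, against 1.55, 1.05 and 3.397 FPKM in Mongolian. It passed the filter through the Mongolian libraries alone, so the order of the breeds was fixed by the filter. The log2 difference was -1.51 (95% confidence interval -2.67 to -0.34), and the unadjusted p was 0.0145 with a limma adjusted p of 0.998. With a pseudocount of 0.1 it was -4.23, after quantile normalization it was -0.74, and no fold change is given because Hu was listed at 0. IL17RC, a chain of the receptor for interleukin 17A and 17F, stood at 0, 1.04 and 0.751 FPKM in Hu, against 2.55, 0 and 3.14 FPKM in Mongolian. There the breeds overlapped.

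JAK1, the kinase used by interferon, gp130 and common gamma chain receptors, had the second highest mean of the 91 genes. By library it ranked 13, 4 and 2 in Hu, against 2, 1 and 4 in Mongolian. It stood at 3.11, 10.2 and 24.04 FPKM in Hu, against 16.4, 10.9 and 14.6 FPKM in Mongolian. Hu 1 was lowest and Hu 3 highest of the 6 libraries, and the Mongolian values lay between them. Its average was 12.5 ± 10.6 FPKM in Hu and 13.97 ± 2.79 FPKM in Mongolian (mean ± SD, n = 3 each). JAK1 made up 30.1%, 54.4% and 60.7% of the summed Janus kinase level in Hu and 54.9%, 51.1% and 39.9% in Mongolian. It was the highest Janus kinase in 5 libraries, and JAK3 was highest in Hu 1.

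JAK3 is best known from lymphocytes, where it pairs with the common gamma chain of interleukin receptors. It stood at 4.18, 2.67 and 6.75 FPKM in Hu, against 8.76, 5.55 and 9.52 FPKM in Mongolian, with overlap between Hu 3 and Mongolian 2, and its log2 difference was -0.73 (95% confidence interval -2.08 to 0.62). The gene for that gamma chain, IL2RG, was not listed by symbol. JAK2, used by receptors for growth hormone and prolactin, stood at 0.685, 1.79 and 5.11 FPKM in Hu, against 1.43, 1.15 and 2.73 FPKM in Mongolian. TYK2, used by the type I interferon receptor, stood at 2.37, 4.09 and 3.71 FPKM in Hu, against 3.304, 3.76 and 9.74 FPKM in Mongolian. The Hu values of TYK2 spanned a narrow range, and Mongolian 3 stood apart from the other 5 libraries.

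STAT3, the main target of gp130 signalling, had the highest mean of the STATs over all libraries. It was the highest STAT in Hu 2 and Hu 3 only, while STAT2 was highest in Hu 1, STAT5B in Mongolian 1 and STAT6 in Mongolian 2 and Mongolian 3. It stood at 3.18, 8.25 and 17.7 FPKM in Hu, against 8.16, 7.33 and 9.78 FPKM in Mongolian. Its average of 9.697 ± 7.35 FPKM in Hu and 8.42 ± 1.24 FPKM in Mongolian (mean ± SD, n = 3 each) went with a Hu range that enclosed the Mongolian one, with a log2 difference of -0.06 (95% confidence interval -1.45 to 1.32). STAT3 contributed 24.5%, 34.8% and 29.3% of the summed STAT level in Hu and 24.7%, 23.7% and 22.2% in Mongolian. Hu 2 and Hu 3 exceeded every Mongolian library in this share, and Hu 1 lay below Mongolian 1.

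STAT6, the factor activated by interleukin 4 and interleukin 13, had the lowest p of the STATs. It stood at 0, 4.61 and 9.97 FPKM in Hu, against 6.82, 10.2 and 13.3 FPKM in Mongolian. Hu 1 was listed at 0 and Hu 3 lay between Mongolian 1 and Mongolian 2, so the breeds overlapped. Its log2 difference was -1.45 (95% confidence interval -3.18 to 0.29), with an adjusted p of 0.998. It was -0.46 without Hu 1 and -2.18 without Hu 3. STAT5A and STAT5B, close copies that act below prolactin and growth hormone receptors, overlapped between breeds as well. STAT5A stood at 3.36, 0.637 and 8.96 FPKM in Hu, against 3.48, 3.49 and 6.72 FPKM in Mongolian, and STAT5B stood at 1.86, 8.04 and 11.6 FPKM in Hu, against 9.34, 5.18 and 7.48 FPKM in Mongolian. The handling of reads that fit both copies is not given, so the split between them is uncertain. Hu 2 was lowest of the 6 libraries for STAT5A, whereas Hu 1 was lowest for STAT5B.

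STAT2 joins IRF9 in the complex that type I interferon activates. STAT2 stood at 3.93, 1.01 and 5.24 FPKM in Hu, against 2.85, 1.75 and 4.85 FPKM in Mongolian. IRF9 stood at 4.58, 6.904 and 7.39 FPKM in Hu, against 5.49, 5.58 and 11.9 FPKM in Mongolian. Neither gene separated the breeds. All 6 STATs had a negative log2 difference, as did 6750 of all 9971 genes tested. The values ran from -1.45 for STAT6 to nearly 0 for STAT2, with a median of -0.21 beside -0.28 over all genes tested. None passed the test.

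**Figure D2:**
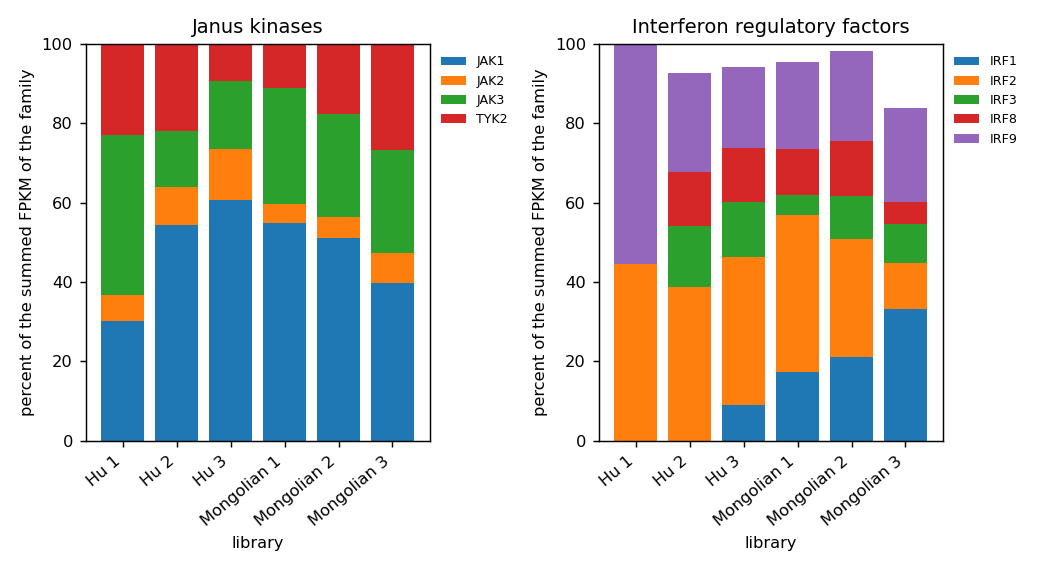
Share of each tested gene in the summed FPKM of its family (percent) for Janus kinases and interferon regulatory factors, by library, with genes under the filter left undrawn. IRF1 takes 17.4% to 33.1% of the IRF sum in the Mongolian libraries, 8.92% in Hu 3 and 0 in Hu 1 and Hu 2, while JAK1 takes 30.1% to 60.7% of the Janus kinase sum.

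The SOCS inhibitors had no common leading member. The highest SOCS gene was SOCS4 in Hu 1, SOCS6 in Hu 2 and Mongolian 2, SOCS3 in Hu 3 and Mongolian 1, and SOCS2 in Mongolian 3. SOCS2, an inhibitor of growth hormone signalling, stood at 0, 0 and 2.44 FPKM in Hu, against 3.92, 0.734 and 8.39 FPKM in Mongolian. The log2 difference was -1.51 (95% confidence interval -3.26 to 0.23), but Hu 3 exceeded Mongolian 2. It was -0.95 without Mongolian 3. SOCS3, which is induced by STAT3 and blocks gp130, stood at 0, 1.15 and 8.96 FPKM in Hu, against 8.54, 0.527 and 1.604 FPKM in Mongolian. SOCS6 stood at 0, 9.86 and 3.19 FPKM in Hu, against 3.18, 1.95 and 7.12 FPKM in Mongolian, and SOCS7 at 0, 2.27 and 3.48 FPKM in Hu, against 0.4804, 1.64 and 5.96 FPKM in Mongolian. Of the 5 tested SOCS genes, 4 were at 0 in Hu 1, where 39.0% of all genes tested were at 0.

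SOCS4, an inhibitor of growth factor signalling, did not pass the filter but separated the breeds. It stood at 1.499, 3.77 and 0.293 FPKM in Hu, against 0.0464, 0.0718 and 0.00491 FPKM in Mongolian. It was singled out after its values were seen. Fitted without the filter, its log2 difference was 1.26 with a standard error of 0.60 (limma adjusted p = 0.975, unadjusted p = 0.0588). It was the 1 gene of the 45 under the filter with all Hu values above all Mongolian values (2.22%, against 0.399% of all 4509 genes under the filter), and 0 of the 45 had all of them below (against 1.6%).

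IRF1 had the lowest p of all 46 tested members. It is a transcription factor that interferon gamma induces, and it activates antiviral and antigen presentation genes. IRF1 stood at 0, 0 and 3.22 FPKM in Hu, against 4.35, 5.17 and 16.7 FPKM in Mongolian. All Hu values lay below all Mongolian values, with Hu 1 and Hu 2 at 0 and Mongolian 3 far above the rest. The log2 difference was -2.37 (95% confidence interval -4.13 to -0.61), with a standard error of 0.83 and an unadjusted p of 0.0115. The limma adjusted p over all 9971 genes tested was 0.998. Array weights, which set library weights of 0.41, 3.64 and 0.25 on Hu 1, Hu 2 and Hu 3, turned IRF1 into a call (log2 difference -2.68, adjusted p = 0.0186), where 633 genes were called in all. With the pseudocount at 0.1 or 0.01 in place of 1, the log2 difference was -4.51 or -6.72, since Hu 1 and Hu 2 are at 0. Over the alternatives that tested it, its adjusted p ranged from 0.0186 to 1, and without Mongolian 3 the log2 difference was -1.83.

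The other interferon regulatory factors overlapped between breeds. IRF2, which competes with IRF1 for the same sites, stood at 3.66, 10.7 and 13.5 FPKM in Hu, against 9.94, 7.34 and 5.86 FPKM in Mongolian. It had the highest mean of the family and a log2 difference of 0.11 (95% confidence interval -1.23 to 1.46). IRF3, which switches on interferon genes after viral sensing, stood at 0, 4.28 and 5.01 FPKM in Hu, against 1.23, 2.62 and 5.005 FPKM in Mongolian. IRF8, a factor of macrophages and dendritic cells, stood at 0, 3.74 and 4.92 FPKM in Hu, against 2.95, 3.42 and 2.8003 FPKM in Mongolian. Apart from 0 in Hu 1, IRF8 kept within a narrow range. IRF7, the amplifier of type I interferon, was listed at 0.4604 FPKM in Hu 3 and 8.07 FPKM in Mongolian 3 only.

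TNFRSF1A, the receptor that most cells use for TNF, had the third highest mean of the 91 genes. By library it ranked 11, 2 and 12 in Hu, against 3, 7 and 2 in Mongolian. It stood at 3.28, 22.8 and 8.51 FPKM in Hu, against 12.5, 6.85 and 16.1 FPKM in Mongolian. Hu 2 was highest and Hu 1 lowest, with the Mongolian values between, and the log2 difference was -0.30 (95% confidence interval -1.74 to 1.14). TNFRSF1B, the receptor found mainly on leukocytes and endothelium, stood at 0, 1.26 and 3.19 FPKM in Hu, against 0, 5.39 and 0.603 FPKM in Mongolian. TNFRSF12A, the receptor for TWEAK, stood at 0, 1.09 and 3.695 FPKM in Hu, against 0, 4.98 and 0 FPKM in Mongolian. Both peaked in Mongolian 2. TNFRSF19, a receptor also called TROY, stood at 6.42, 0 and 7.54 FPKM in Hu, against 1.22, 2.07 and 5.45 FPKM in Mongolian, and TNFRSF21, a death-domain receptor, at 0, 1.49 and 1.03 FPKM in Hu, against 0, 0.484 and 0.761 FPKM in Mongolian. The breeds overlapped in all 5.

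TNFSF13, the B cell ligand APRIL, was the only TNF superfamily ligand that passed the filter, and its log2 difference was the largest positive one of the tested members with all 6 libraries. It stood at 5.87, 6.87 and 2.11 FPKM in Hu, against 0.638, 8.31 and 0 FPKM in Mongolian. Mongolian 2 was highest of all 6 libraries, so the breeds overlapped, and the log2 difference was 1.15 (95% confidence interval -0.72 to 3.02). It was 2.11 without Mongolian 2 and 0.50 without Mongolian 3, where CCL21 (0.84) exceeded it. Toll-like receptors were low throughout. None of the 7 passed the filter, and the highest value of any was 1.76 FPKM, for TLR6 in Hu 3. TLR4, the sensor of bacterial lipopolysaccharide, was listed at 0.2999 FPKM in Hu 3 and 0.671 FPKM in Mongolian 2 only. TLR1 and TLR6 are close copies, and the split of reads between them is uncertain.

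**Figure D3:**
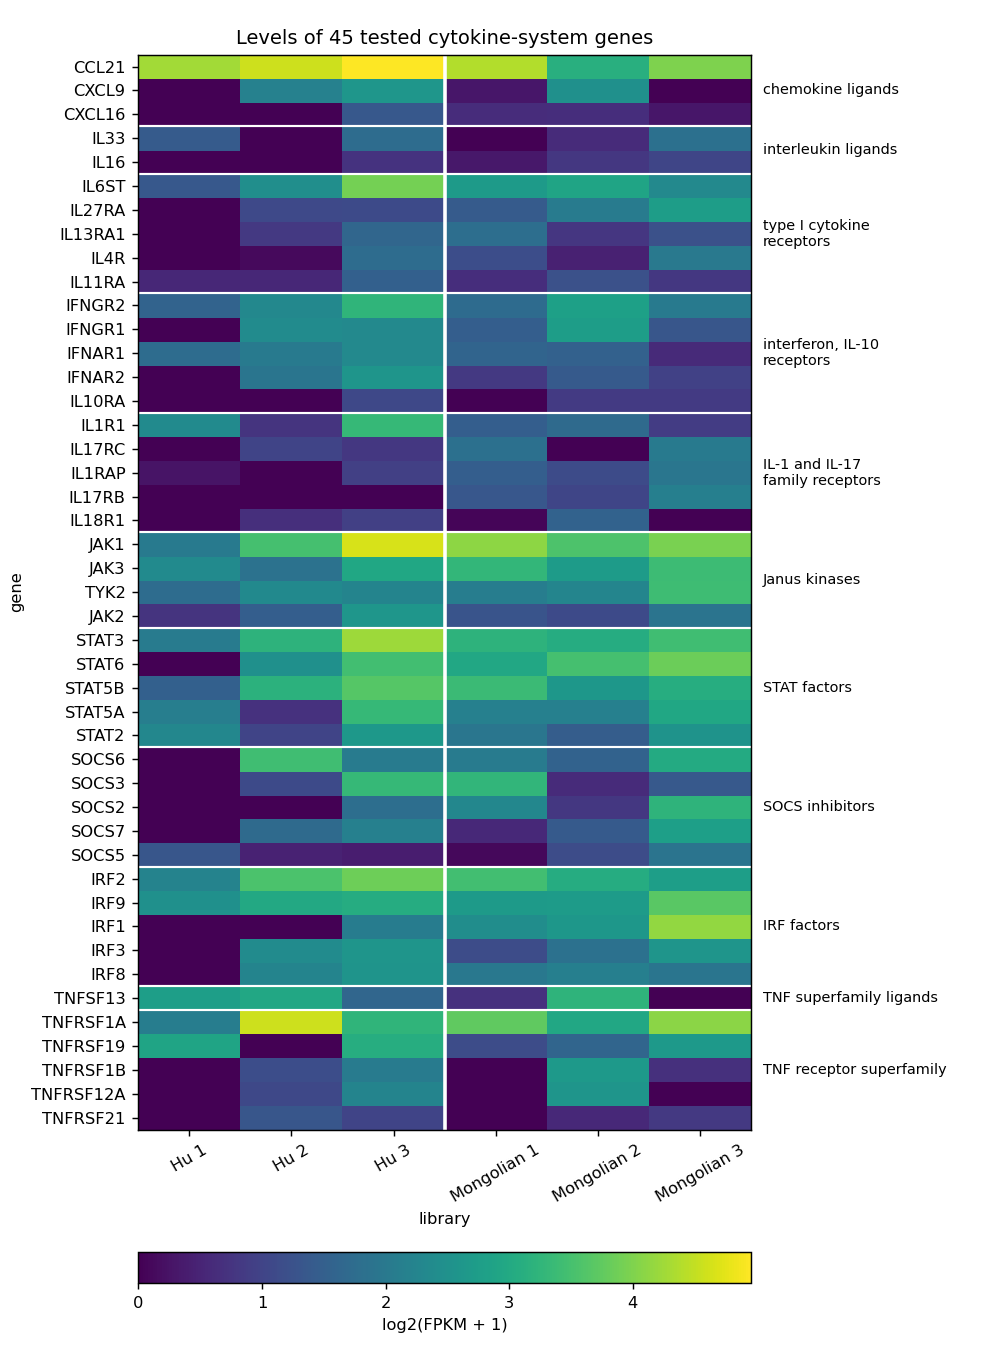
Levels of 45 of the 46 tested genes as log2(FPKM + 1) in each library, with genes grouped by role and ordered by mean within a role. Hu 1 is the darkest column. Over all 46 tested genes, 23 were at 0 in Hu 1 (50%, against 39.0% of all genes tested). In Hu 3, 22 of the 46 were highest (47.8%, against 45.0% of all genes tested).

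The breed comparison was then made over the whole gene table, on log2(FPKM + 1), with Hu minus Mongolian differences. Of the 46 tested members, 0 had a limma adjusted p under 0.05, where the percentage over all 9971 genes tested was 0. At an unadjusted p under 0.05 there were 0 members higher in Hu, against 0.913% of all genes, and 2 lower, IRF1 and IL17RB, which is 4.35% of the 46 against 2.82% of all genes. All 3 Hu values lay above the Mongolian ones in 1 member, IFNAR1 (2.17% against 1.88% of all genes). They lay below in 4, IRF1, IL17RB, IL1RAP and IL27RA (8.7% against 6.05%). IL17RB passed the filter through the Mongolian libraries alone, which fixed its order and favoured a low p. These counts are too small to set the members apart from all genes.

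**Figure D4:**
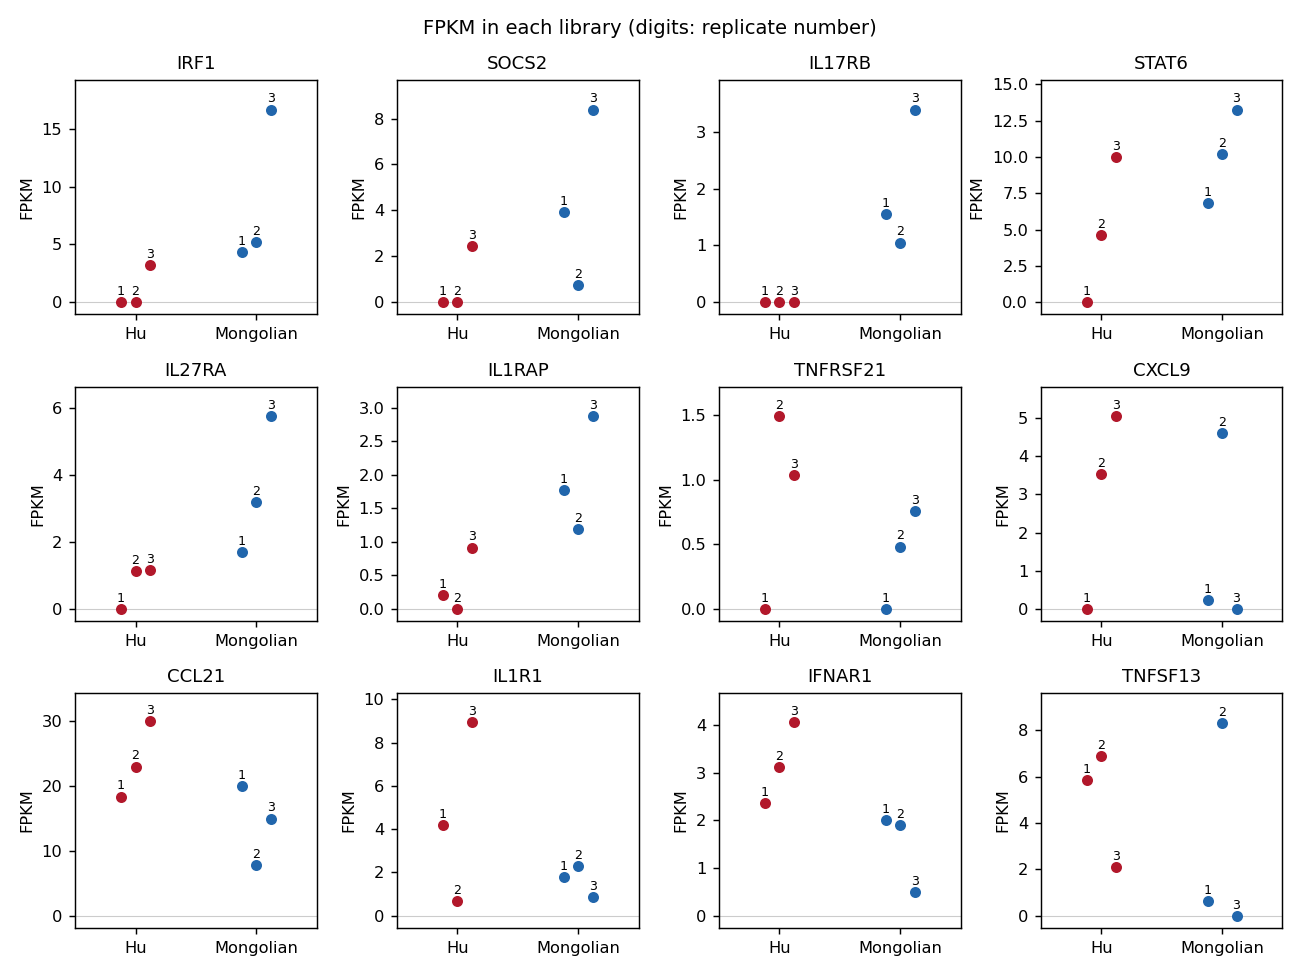
FPKM in each of the 3 Hu and 3 Mongolian libraries for 12 members, ordered from the most negative to the most positive log2 difference (left to right, top to bottom). In each direction they are the 6 tested members with the lowest unadjusted p of that direction. IRF1, IL17RB, IL27RA and IL1RAP have all Hu values below all Mongolian values, and IFNAR1 has all of them above.

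Differences were negative in 33 of the 46 and positive in 13 (28.3% positive, against 32.3% of all genes tested). The median log2 difference was -0.20 for the 46 and -0.28 for all genes. The balance of directions followed single libraries and the scaling. Positive differences numbered 28 of 46 without Hu 1 and 6 without Hu 3. Scaling by median of ratios gave 17, quantile normalization 27, and a common library sum 22. The median of all genes moved with them, to 0.01 without Hu 1, -0.66 without Hu 3, 0.02 after quantile normalization and -0.09 after rescaling. The median of the members minus that of all genes was 0.07 as deposited and lay between 0.05 and 0.25 in all 16 alternatives. The unadjusted 95% interval of a member reached 1.53 to either side in the median. A call needed an adjusted p below 0.05 over all genes tested, so changes beyond 1.53 could also go uncalled. IRF1, at -2.37, was not called.

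**Figure D5:**
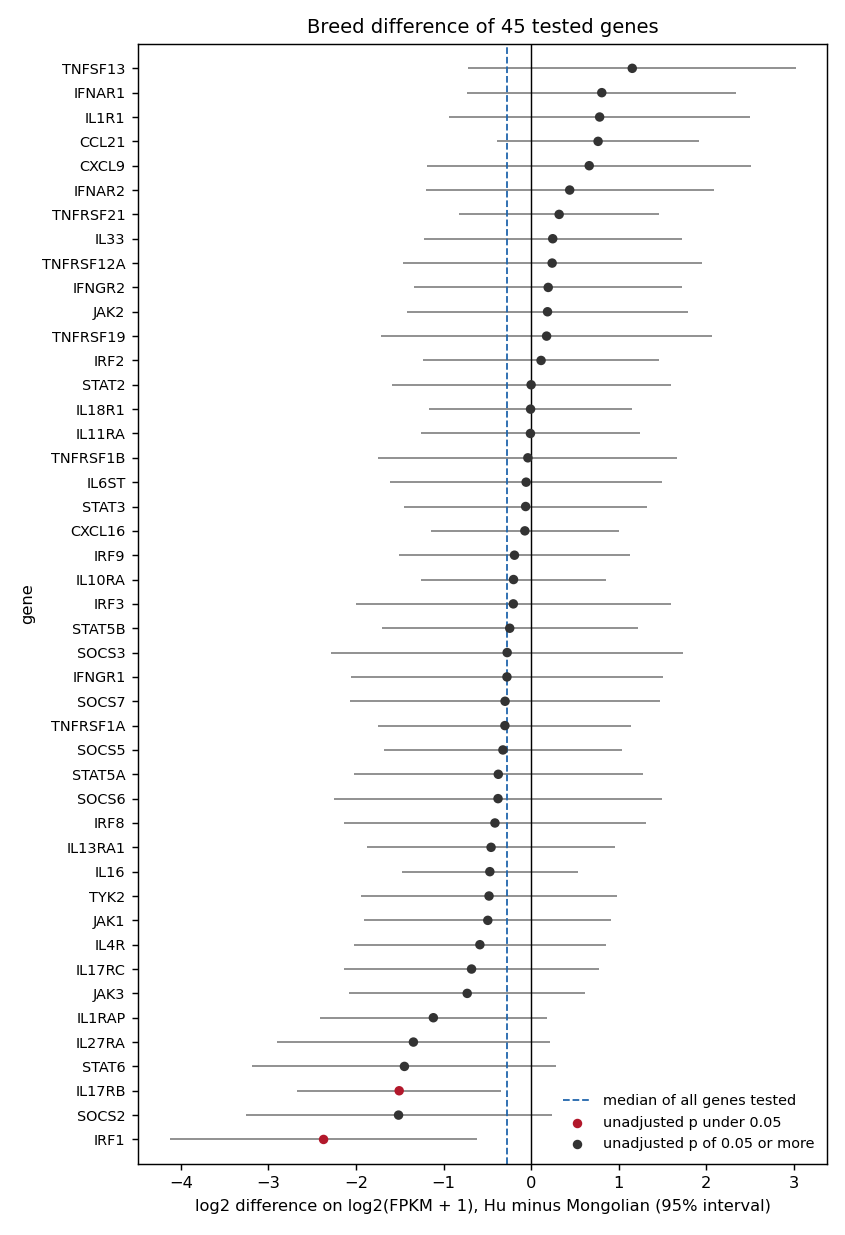
Log2 difference, Hu minus Mongolian, on log2(FPKM + 1) for 45 of the 46 tested genes, with unadjusted 95% confidence intervals from limma. Over all 46 the interval includes 0 for 44 genes and excludes it for IRF1 and IL17RB, and the dashed line marks the median of all genes tested (-0.28).

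The spread within Hu exceeded that within Mongolian for most members. The median SD of log2(FPKM + 1) over the 46 was 0.956 in Hu and 0.567 in Mongolian, and Hu was the wider in 33 of them (71.7%, against 74.7% of all genes tested). Of the 23 members listed everywhere, 14 were lowest in Hu 1 and 16 highest in Hu 3. Over all 5046 genes listed everywhere, those shares were 43.3% and 47.6%, beside 60.9% and 69.6% of the 23.

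Genes of the same pathways that the family names do not cover were examined next. The share of positive differences over all genes tested was 32.3%, with a median of -0.28. Of 19 JAK-STAT adaptors and inhibitors, 15 were tested and 0 passed, with 5 positive and 10 negative differences and a median of -0.26. PTPN11, the phosphatase SHP2, stood at 1.88, 6.398 and 30.9 FPKM in Hu, against 6.095, 8.54 and 12.05 FPKM in Mongolian. CREBBP, a coactivator that STATs recruit, stood at 4.94, 6.697 and 9.29 FPKM in Hu, against 19.01, 8.51 and 19.2 FPKM in Mongolian. Of 23 further ligands and receptors of the gp130 and colony-stimulating families, 7 were tested and 0 passed, with a median of -0.28. LIFR, the receptor for leukaemia inhibitory factor, stood at 1.07, 0 and 4.37 FPKM in Hu, against 1.76, 2.01 and 2.13 FPKM in Mongolian. Like IL6ST, it was highest in Hu 3.

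Of 56 genes of Toll-like receptor and NF-kB signalling, 31 were tested and 0 passed, with 7 positive and 24 negative differences and a median of -0.28. RELA, the main activating subunit of NF-kB, stood at 5.75, 19.6 and 23.3 FPKM in Hu, against 20.9, 8.401 and 17.6 FPKM in Mongolian. Of 55 interferon-induced genes, 25 were tested and 0 passed, with 8 positive and 17 negative differences and a median of -0.52. For all genes tested, 32.3% of differences were positive and the median was -0.28. B2M, the light chain of MHC class I, stood at 134, 159 and 200.4 FPKM in Hu, against 168, 145 and 70.9 FPKM in Mongolian. IFI6 stood at 100.2, 71.5 and 64.1 FPKM in Hu, against 140.1, 197 and 80.2 FPKM in Mongolian. TRIM21, a cytosolic antibody receptor, was the only gene of these lists with an unadjusted p under 0.05, at 0.0285. It stood at 6.39, 12.5 and 8.13 FPKM in Hu, against 1.82, 3.06 and 2.01 FPKM in Mongolian, with all Hu values above all Mongolian values and an adjusted p of 0.998. SP110, a nuclear body protein, had the opposite order, at 3.87, 1.71 and 3.85 FPKM in Hu, against 6.99, 5.11 and 5.297 FPKM in Mongolian. In the other pathway lists EP300, TRAF2 and PTPRC also had all Hu values below all Mongolian values. Across these lists TRIM21 alone had all of them above. Over all genes tested, 1.88% had all Hu values above and 6.05% all below. TRIM21, SP110, EP300, TRAF2 and PTPRC were named here after their values were seen.

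Summed leukocyte markers varied between libraries of the same breed. Of 12 shared leukocyte markers 10 were listed by symbol, and their summed level was 7.26, 15.1 and 17.6 FPKM in Hu and 12.6, 35.96 and 10.9 FPKM in Mongolian. The sum of 13 listed macrophage and monocyte markers of 16 was 16.2, 63.5 and 38.1 FPKM in Hu and 17.02, 92.5 and 8.15 FPKM in Mongolian. PTPRC, the CD45 antigen of all leukocytes, stood at 1.22, 0 and 1.36 FPKM in Hu, against 2.15, 3.96 and 3.87 FPKM in Mongolian. All its Hu values lay below all its Mongolian values, unlike the sums (log2 difference -1.29, limma adjusted p = 0.998). CD68, a lysosomal macrophage marker, stood at 4.93, 19.3 and 7.42 FPKM in Hu, against 6.01, 29.1 and 3.57 FPKM in Mongolian. Mongolian 2, with the highest sums, was also the only library to list CXCR4, CXCL11, IL20RA, IL34 and IRF5, and the one where TNFRSF1B, TNFRSF12A, IFNGR1, IL18R1 and TNFSF13 were highest. Those 5 were 10.9% of the 46 tested members, against 6.52% of all genes tested. Hu 3 was highest in 22 of the 46 (47.8%, against 45.0% of all genes tested). In Hu 2, with a macrophage sum of 63.5 FPKM, 0 members were listed in that library alone. The same held in Hu 1, with a macrophage sum of 16.2 FPKM. The part of leukocyte content in these values was not tested.

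Lymphocyte markers were at or near 0 in several libraries. Of 20 T and NK cell markers 9 were listed by symbol, with sums of 0, 0.90005 and 8.73 FPKM in Hu and 1.60, 8.46 and 0.612 FPKM in Mongolian. The T cell receptor subunit gene CD3E was listed in Mongolian 1 alone and CD3G in Mongolian 2 alone. Of 10 B and plasma cell markers 3 were listed, with sums of 0, 0 and 8.88 FPKM in Hu and 3.47, 4.74 and 0.437 FPKM in Mongolian. Neutrophil and mast cell markers, 4 listed of 12, summed to at most 3.52 FPKM in Hu and 5.19 FPKM in Mongolian. Of 7 red blood cell markers 1 was listed, in Mongolian 3 only. The shared leukocyte markers had a positive difference in 1 of 6 tested genes (median -0.33), the macrophage markers in 7 of 9 (median 0.16), and the endothelial markers in 7 of 10 (median 0.53). For all genes tested the share was 32.3% (median -0.28). Of 17 ovary markers 11 were listed and 8 tested, with a positive difference in 7 (median 0.59) and 0 past the test. Among them was the inhibin subunit gene INHA, at 99.1, 15.6 and 45.2 FPKM in Hu, against 25.9, 15.8 and 40.4 FPKM in Mongolian. AMH, FOXL2 and CYP19A1 were not listed by symbol.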

How the data were processed

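Per the labels' protocols, RNA was taken with an RNeasy kit and made into libraries of polyadenylated RNA with a SMARTer kit. The authors deposited FPKM values per gene, with a column for each of the 6 libraries. No source used here names the aligner, counting tool, genome build or filters. Breeds and replicate numbers came from sample titles and columns from the codes in the sample descriptions; 0 columns had no sample. A search for whole-read steps among low values found at most 0.566% of genes under 2 FPKM sharing a ratio between libraries within 0.2%, and the depth is therefore unknown. No identical value above 0 was found between libraries.

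Genes reaching 0.5 FPKM in 3 or more libraries were tested on log2(FPKM + 1), a scale that understates changes of low genes, with limma 3.58.1 in R 4.3.3 (lmFit, eBayes with a trend), two-sided, breed as the only factor and Benjamini-Hochberg adjustment over all genes tested. Calls needed an adjusted p below 0.05. The fit was also run on simulated data, but the outcome is not reported here and no result rests on it. Library totals were compared with exact permutation tests. The members, gene lists and settings were chosen with earlier results of these data known. Named members are, per role, up to 4 tested genes with the highest mean, the 6 with the lowest p in each direction, those whose breeds do not overlap, those above 20 FPKM in a library, and pairs of ligand and receptor that were both tested. Others are named as counts or as examples of scarce genes, after their values were seen. Counts cover all members, but values of some genes are not reported here. The lncRNA table was not used, since its transcripts carry no gene symbols.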

Additional observations from a re-analysis of the deposited data

How the results depend on the processing

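Of the members, 0 were called in 15 of the 16 alternatives and 1, IRF1, with array weights. Over all genes, 633 were called with array weights, 6 without Hu 1 and Hu 3 together (added after seeing the data), 0 to 4 when a single library was left out (2 without Hu 2, 4 without Hu 3), and 0 in the remaining alternatives: pseudocounts of 0.1 and 0.01, no filter, a filter at 5 FPKM, quantile normalization, scaling by median of ratios or to a common sum, and the replicate number as a block. With the replicate block 0 members and 0 genes were called. Libraries that share a number had correlations of -0.01, -0.03 and -0.18 across genes, beside -0.11 to 0.16 for the other pairs. With 3 libraries per breed, these values cannot show whether the numbers pair anything. For 12 members, the 6 of lowest p in each direction, the sign was followed over the alternatives. Of these, 11 kept their direction in each alternative that tested them. IL1R1 turned to -0.42 with array weights and -0.62 without Hu 1 and Hu 3. The 12 were chosen by p from these same libraries, which favours a kept direction, so the count is no independent support. The difference in the number of members listed ranged from -19.7 to 3.83 over the single libraries left out, positive without Hu 1 only. That in the log2 summed level ranged from -0.66 to 0.27, positive without Hu 1 only, and was 0.12 after rescaling to a common sum. The cause was not tested. Depth is unknown, and the 3 libraries of a breed limit the precision of each value.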

Other observations

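Several members are neighbours in the genome. By symbol all 91 matched the RefSeq gene table of the sheep assembly ARS-UI_Ramb_v3.0, and 27 of them fell into 11 runs in which a member follows another within 3 protein-coding genes. The interferon receptor genes IFNGR2, IFNAR1 and IFNAR2 form such a run, and all 3 had positive log2 differences, 0.19, 0.81 and 0.44, none of which passed the test. STAT5B, STAT5A and STAT3 form another, with -0.25, -0.38 and -0.06. IL18R1, IL1RL1, IL1R1 and IL1R2 also lie together. There the signs differed, at -0.007 for IL18R1 and 0.78 for IL1R1, and the others were under the filter. IL1RL1, the receptor for interleukin 33, was listed only in Hu 3 at 2.56 FPKM and in Mongolian 3 at 3.91 FPKM, and IL1R2, a decoy receptor for interleukin 1, only in Hu 3 at 0.214 FPKM and in Mongolian 2 at 1.24 FPKM. The neighbours CCL26 and CCL24, which encode eosinophil chemokines, were listed in Hu libraries only. CCL26 reached 4.82 FPKM in Hu 1 and 8.64 FPKM in Hu 3 and was listed at 0 in Hu 2 and the 3 Mongolian libraries, and CCL24 reached 2.08 FPKM in Hu 3 alone.

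Of the 45 members under the filter, 13 were listed in Hu libraries only, 12 in Mongolian libraries only and 20 in both. Of the 13, 11 were listed in Hu 3 alone, the library that alone listed 7.87% of all genes. The same counts were not made over all genes under the filter, so they describe no trait of the members. Fitted without the filter, CCL26 had the lowest p of these 45 (unadjusted p = 0.045, limma adjusted p = 0.975). CCL26, CCL24, IL1RL1 and IL1R2 were chosen after their values were seen.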
